A study of Sus scrofa with 2 samples.

Results

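The ligands, receptors, SMAD factors and secreted antagonists of BMP, TGF beta and FGF signalling were examined in the lateral wall of the pig cochlea, the tissue that carries the stria vascularis (SV). Members were taken by gene symbol: BMP, GDF, FGF, FGFR, SMAD or TGFB followed by a number, the receptors BMPR1A, BMPR1B, BMPR2 and TGFBR1 to TGFBR3, and the antagonists NOG, CHRD, GREM1 and FST. This gave 62 of 27622 features in the expression table, which stand for 58 genes. NOG was not analysed here. Each MITF genotype, R/r and r/r, was represented by 1 RNA-seq library. The R/r control carries a copy of the r allele too, and no library without it is analysed here. Per the study, the r allele comes from albino Rongchang pigs with hearing loss and has short insertions in the promoter of the melanocyte isoform of MITF. The sample labels give the age as P1, whereas the text of the study places the RNA-seq at an embryonic stage. The sources used here do not say whether RNA of several animals was pooled.

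BMPs, GDFs and TGF betas are dimeric secreted ligands that bring together type I and type II receptor kinases, which phosphorylate SMAD factors that then enter the nucleus with SMAD4. SMAD1, SMAD5 and SMAD9 carry the BMP branch, SMAD2 and SMAD3 the TGF beta and activin branch, and SMAD6 and SMAD7 block the signal. FGFs are secreted ligands of receptor tyrosine kinases that feed the RAS and MAP kinase cascade. In the inner ear these pathways are known for patterning the otic vesicle, for the growth of its sensory and non-sensory epithelium, and for shaping the cartilage and bone of the surrounding capsule.

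Expression was given as RPKM, in which the reads of a gene are scaled to the length of its exons and to the mapped reads of the library. RPKM is a value per length, so levels of different genes may be compared within a library. Low RPKM values were whole multiples of the value of a single read, and this gave totals of 15829244 reads in the R/r library and 14258672 reads in the r/r library. For each gene the lowest fitting whole reads were taken, so the true reads may be a multiple of those given. Ratios are log2(RPKM in the r/r library over RPKM in the R/r library) with no pseudocount, and the range in parentheses after a ratio is an exact 95% Clopper-Pearson interval on the reads. Such an interval holds counting error alone. Since each genotype had a single library, no replicate check and no p-value could be given, and every difference is between libraries. Of the lateral wall markers, COCH had 6826 RPKM in the R/r library and 4914 RPKM in the r/r library. It is the gene of cochlin, a matrix protein of spiral ligament fibrocytes. KCNE1, a potassium channel subunit of marginal cells, had 278 and 248 RPKM. SLC26A4 was low at 0.209 and 0.116 RPKM, from 8 and 4 reads. It was placed in the basal cell and fibrocyte list here, but which cells express it was not tested. GJB2, GJB6, OTOS and KCNQ1 were not found by symbol. The mutated gene MITF was listed as 3 features with log2 ratios from -0.51 to -0.45, and these values do not separate its isoforms.

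Of the 58 genes, 39 were above 0 in both libraries with at least 1 RPKM in at least one of them. Of these 39 genes, 0 were at least 2-fold apart, where 3.99% of all 16331 genes past the same minimum were (2.20% lower and 1.78% higher in the r/r library). These shares of all genes were not matched for reads. Among the 9350 genes with no fewer reads than the member FST, 0.545% had a log2 ratio below its -0.90. The median log2 ratio of the 39 genes was 0.01, beside -0.02 for all genes. Of all 16331 genes 8711 lay below 0 and 7620 above, and of the 39 genes 19 and 20. Among the 39, the lowest ratio belonged to FST and the highest to BMP3. In bulk RNA, fewer cells of a type and less RNA per cell cannot be told apart. The 39 genes had 1229 reads in the median, where all genes had 448, so small differences were better resolved among them than among most genes. The interval lay wholly below no change in 9 of them (14.5% of all genes) and wholly above it in 12 (11.2% of all genes), so it left no change out in 53.8% of the members and 25.7% of all genes. With the libraries scaled to TPM, it lay below in 10 members and above in 9, and below in 18.4% and above in 8.54% of all genes. Among the 20 members with at least their median of reads, it lay below in 2 and above in 10, beside 22.9% and 20.8% of the 4554 genes of that depth. In either direction these were 60% of the deeper members and 43.7% of the genes of that depth.

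**Figure D1:**
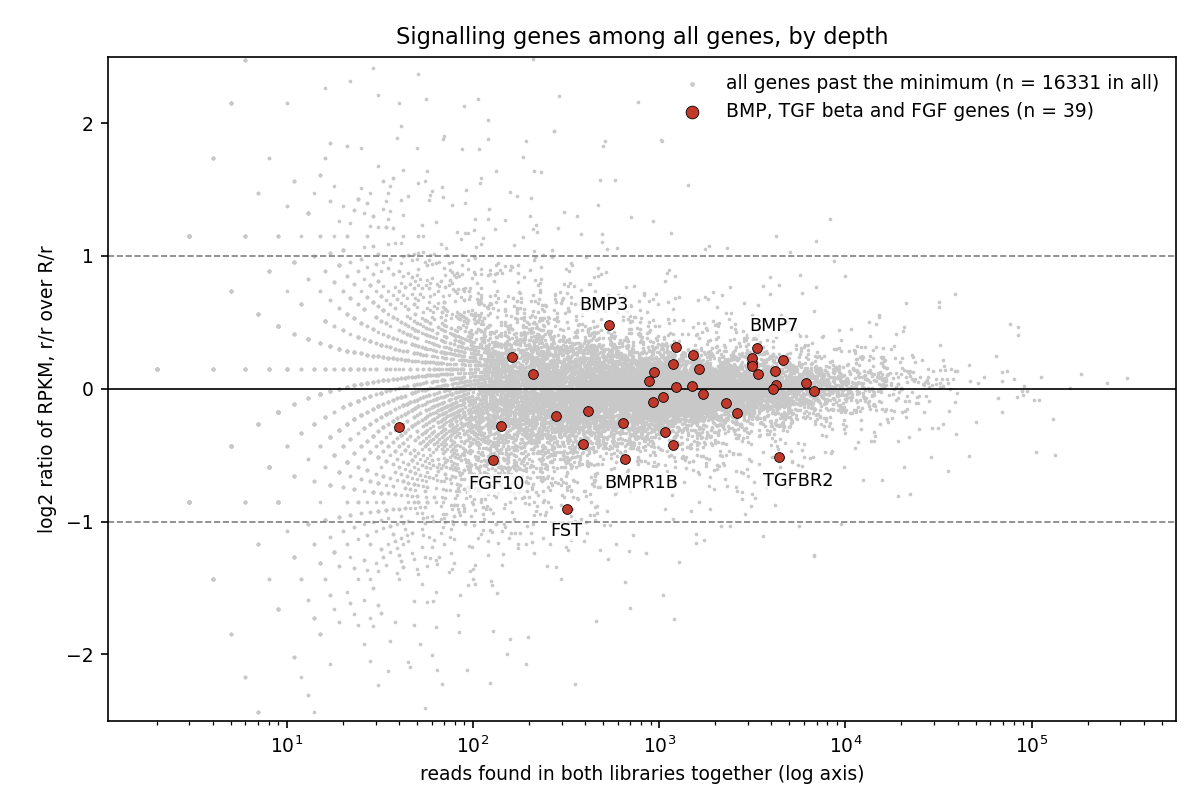
Each point is a gene, with the reads of both libraries together on a log axis and the log2 ratio of RPKM, r/r over R/r, on the vertical axis. Grey points are all genes past the minimum of 1 RPKM, except 71 beyond 2.5 on either side, red points are the 39 BMP, TGF beta and FGF genes, and the dashed lines mark 2-fold. All 39 red points lie between the dashed lines, with FST nearest to the lower one.

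The remaining 19 genes were low or absent. BMP2, GDF5, GREM1, FGF7, FGF14, FGF16, FGF18, FGF21 and FGF23 were above 0 in both libraries but under 1 RPKM in each. The highest of these values was 0.961 RPKM, in FGF14, and the lowest 0.0213 RPKM, from a single read in FGF23. GDF2, the circulating ligand also called BMP9, and GDF7 had 1 read each in the R/r library. They had 0 reads in the r/r library, where a count of 0, taken to allow up to 3 reads, sets a limit of 0.269 and 0.156 RPKM. FGF17 had 1 read in the r/r library but none in the R/r library, where the same 3 reads set a limit of 0.574 RPKM. GDF3, FGF3, FGF4, FGF5, FGF6, FGF19 and FGF20 were listed at 0 in both libraries. FGF3 and FGF20 are known from earlier steps of otic development, and since no read gave their exon length, no upper limit of RPKM could be set.

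**Figure D2:**
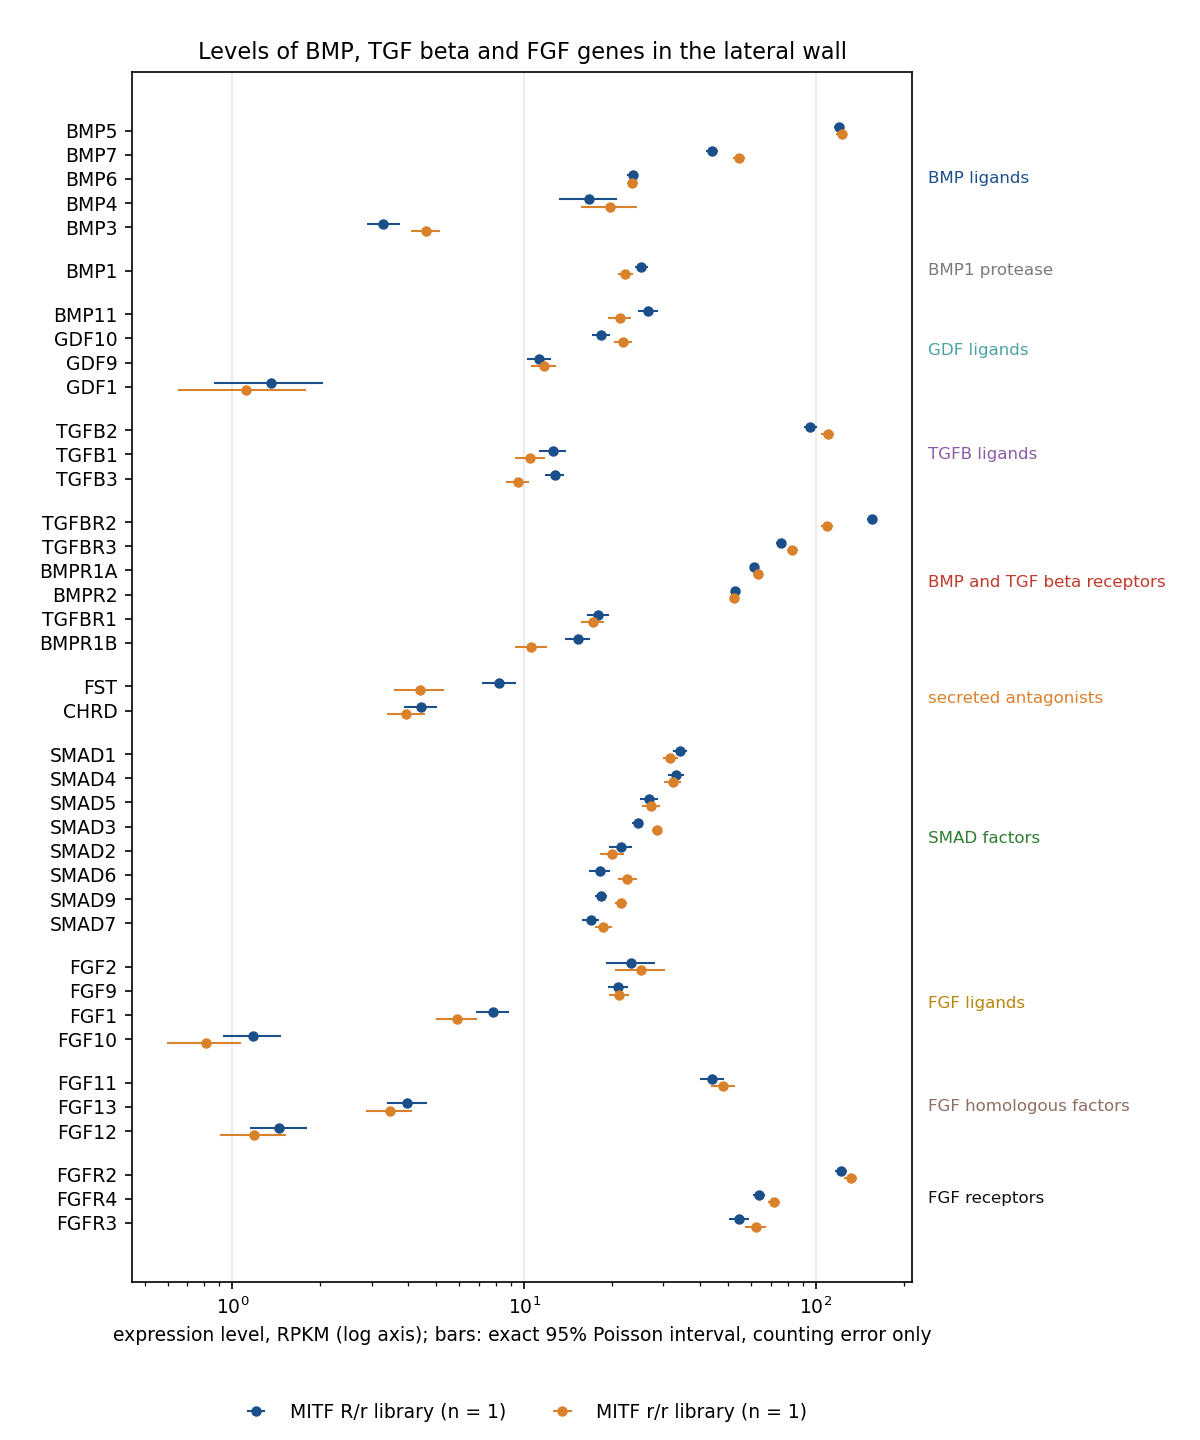
Expression level in RPKM (log axis) of the 39 genes, in the R/r library (blue) and the r/r library (orange), 1 library each, ordered by role and level. Bars are exact 95% Poisson intervals of counting error. TGFBR2, FGFR2, BMP5 and TGFB2 stand near 100 RPKM in both libraries, and GDF1, FGF10 and FGF12 near 1 RPKM.

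Among the BMP ligands, BMP5 and BMP7 made up most of the message. BMP5, a ligand known for skeletal and cartilage growth, had 119.96 RPKM in the R/r library and 122.6 RPKM in the r/r library. Its log2 ratio of 0.03 (-0.06 to 0.12) spanned no change, and it held 57.8% and 54.5% of the summed RPKM of the BMP ligands. BMP7, a ligand of the same subfamily, had 44.0 RPKM in the R/r library and 54.3 RPKM in the r/r library. The ratio was 0.31 (0.21 to 0.40) on 1592 and 1773 reads, and 89.3% of all genes had a lower ratio. BMP6, also of that subfamily, had 23.5 and 23.5 RPKM and a ratio of -0.0047 (-0.09 to 0.08). Of the 3 closely related ligands, BMP5 and BMP6 had overlapping intervals that included 0, and that of BMP7 lay above both.

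BMP4, a ligand of otic patterning, had 16.6 RPKM in the R/r library and 19.6 RPKM in the r/r library. Its 79 and 84 reads lay on an exon model of 300 bases or a multiple of it, and the interval of its ratio of 0.24 (-0.22 to 0.70) was wide. BMP3, an unusual family member that opposes the activity of bone-forming BMPs, had 3.29 and 4.59 RPKM. Its log2 ratio of 0.48 (0.23 to 0.73), a 1.39-fold higher level in the r/r library, was the highest of the 39 genes. BMP2, the nearest relative of BMP4, was listed as a pair of features with exon models of 1742 bases each, by the reads found, which could split the reads of a single gene. They had 4 and 5 reads in the R/r library and 9 and 2 reads in the r/r library, and together 9 and 11 reads. At this depth no difference in BMP2 was detectable. In both libraries BMP5, BMP7 and BMP6 kept this order of levels, and BMP4 followed BMP6, with overlapping intervals in the r/r library. BMP1, which despite its name is a metalloprotease that matures procollagens and frees BMPs from chordin, had 25.2 and 22.2 RPKM and a ratio of -0.18 (-0.29 to -0.07).

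The GDF ligands were expressed at moderate levels. BMP11, another name of GDF11, a ligand of the myostatin type that signals through SMAD2 and SMAD3, had 26.6 RPKM in the R/r library and 21.2 RPKM in the r/r library. The log2 ratio was -0.33 (-0.50 to -0.15). GDF10, also known as BMP3B and the nearest relative of BMP3, had 18.3 and 21.8 RPKM, a ratio of 0.25 (0.10 to 0.40). BMP3 and GDF10 were therefore both higher in the r/r library, and BMP11 was lower. GDF9, best known from the oocyte, had 11.2 and 11.7 RPKM with a ratio of 0.06 (-0.14 to 0.25). GDF1 had 1.36 and 1.12 RPKM from 23 and 17 reads, too few to resolve a difference.

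The TGFB ligands differed in direction. TGFB2, the form known for its part in inner ear and heart development, was the predominant one with 95.7 RPKM in the R/r library and 110 RPKM in the r/r library. It was 7.65 times as high as TGFB1 and 7.53 times as high as TGFB3 in the R/r library, and 10.5 and 11.6 times, in that order, in the r/r library. TGFB2 thereby held 79.1% and 84.6% of the summed RPKM of this family. Its log2 ratio was 0.20 (0.10 to 0.30). TGFB1, the form of platelets and immune cells that is also stored in bone matrix, had 12.5 RPKM in the R/r library and 10.5 RPKM in the r/r library. The ratio of TGFB1 was -0.26 (-0.49 to -0.02). TGFB3, known for palate and lung development, had 12.7 and 9.49 RPKM, and its ratio was -0.42 (-0.59 to -0.25). The interval of TGFB2 lay above those of TGFB1 and TGFB3, which overlapped each other. The levels of TGFB1 and TGFB3 had overlapping intervals in both libraries.

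The largest difference in RPKM among all members was in TGFBR2, the type II receptor that binds TGF beta and starts its signal. It had 155 RPKM in the R/r library and 109 RPKM in the r/r library, from 2711 and 1711 reads. The log2 ratio was -0.51 (-0.60 to -0.43), a 1.43-fold lower level. Of all 16331 genes 7.65% had a lower ratio, and among the 1152 genes of no fewer reads this was 1.997%. TGFBR1, the type I receptor that pairs with it, had 17.9 and 17.2 RPKM with a ratio of -0.06 (-0.24 to 0.12). TGFBR3, the coreceptor betaglycan that presents TGFB2 to TGFBR2, had 75.9 and 83.1 RPKM with a ratio of 0.13 (0.04 to 0.22). TGFBR2 was 8.66 times as high as TGFBR1 in the R/r library and 6.32 times in the r/r library. Of the 6 BMP and TGF beta receptors among the members, TGFBR2 had the highest level in both libraries and TGFBR3 the next.

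For BMPs, the type II receptor BMPR2 had 52.9 RPKM in the R/r library and 52.5 RPKM in the r/r library, a ratio of -0.01 (-0.08 to 0.06). BMPR1A, the widely expressed type I receptor, had 61.5 and 63.3 RPKM, a ratio of 0.04 (-0.03 to 0.11). With 6150 and 6817 reads over both libraries for BMPR1A and BMPR2, these intervals were narrow, but they hold counting error alone. BMPR1B, the type I receptor known from condensing cartilage, had 15.2 RPKM in the R/r library and 10.6 RPKM in the r/r library. Its log2 ratio was -0.53 (-0.76 to -0.30), a 1.44-fold lower level, and 1.59% of the 6835 genes of no fewer reads had a lower one. BMPR1A was 4.04 times as high as BMPR1B in the R/r library and 5.99 times in the r/r library.

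Among the secreted antagonists, FST had the lowest ratio of the 39 genes. FST encodes follistatin, which binds activins and, less tightly, BMPs and GDF11. It had 8.22 RPKM in the R/r library and 4.39 RPKM in the r/r library, from 216 and 104 reads. The log2 ratio of -0.90 (-1.26 to -0.56) was a 1.87-fold lower level, and the interval reached past 2-fold. A lower ratio was found in 2.72% of all genes and in 0.545% of the 9350 genes of no fewer reads. CHRD, which encodes chordin, an extracellular trap of BMP2, BMP4 and BMP7, had 4.42 and 3.94 RPKM with a ratio of -0.16 (-0.45 to 0.12). The level of FST was 1.86 times that of CHRD in the R/r library, while in the r/r library their intervals overlapped. GREM1, a BMP antagonist of the DAN family, had 5 and 3 reads, which is too few for a comparison.

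**Figure D3:**
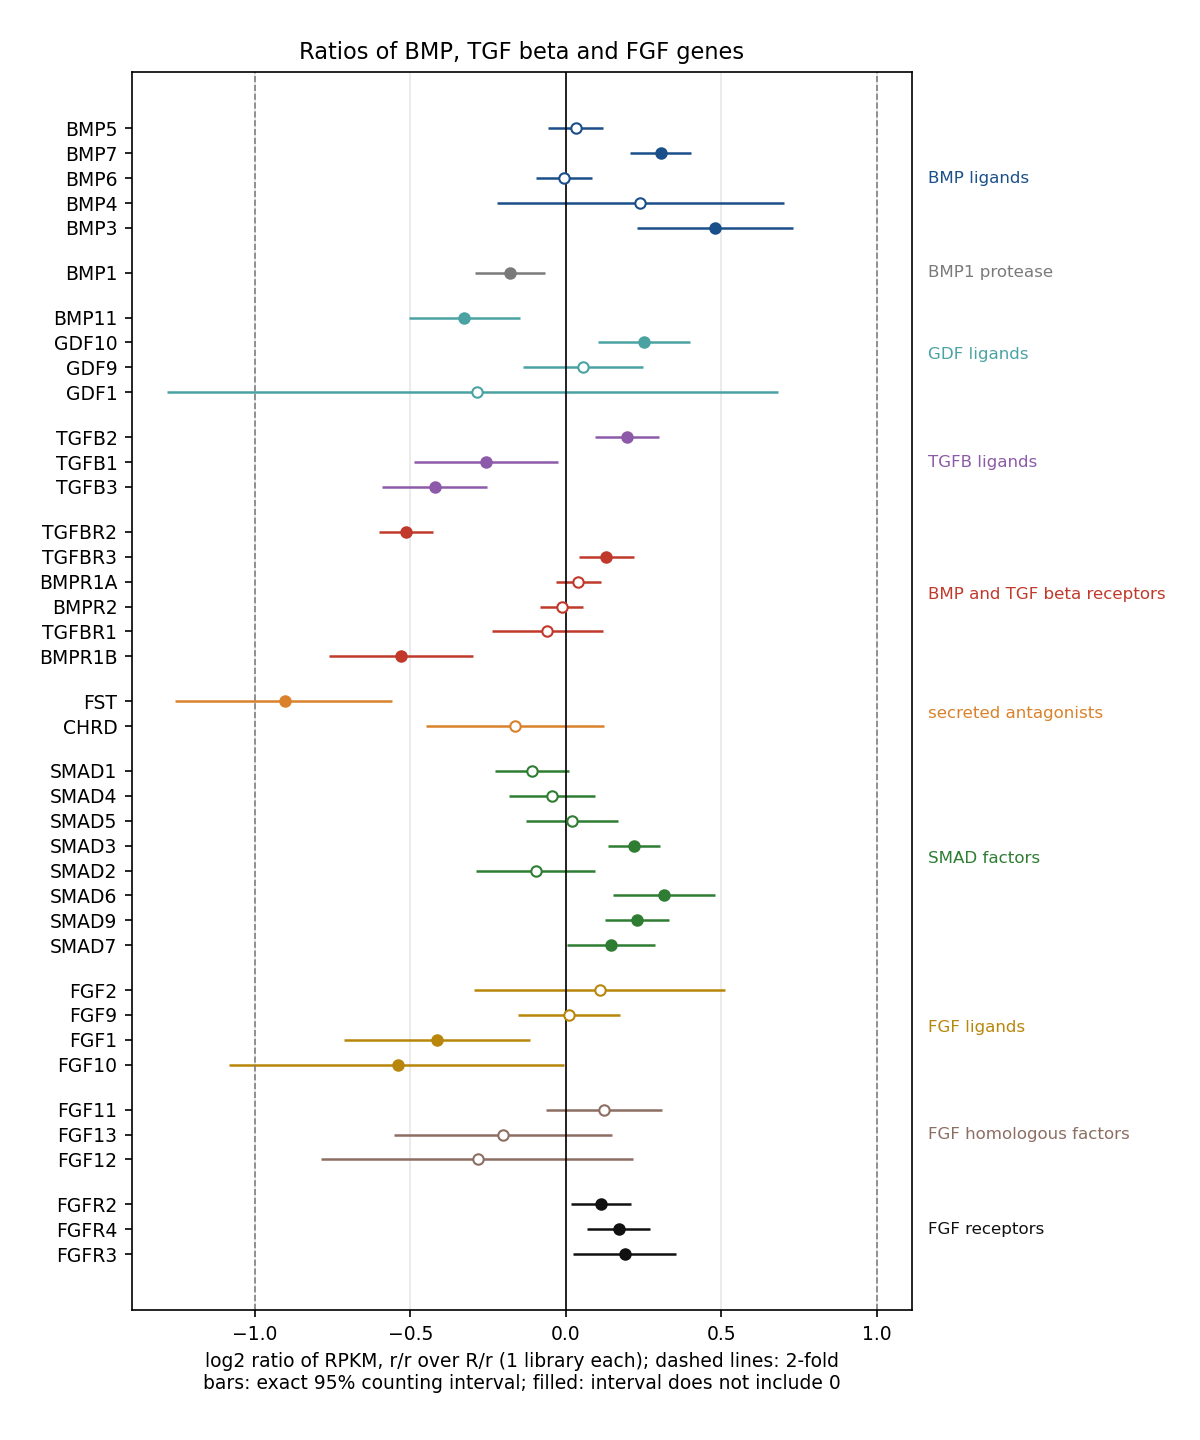
Log2 ratio of RPKM, r/r over R/r, for the 39 genes in the order of the plot of levels, with exact 95% counting intervals, filled where the interval leaves 0 out, and dashed lines at 2-fold. FST is farthest to the left at -0.90 and BMP3 farthest to the right at 0.48, and all 3 FGF receptors lie above 0.

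All 8 SMAD genes were expressed between 16.9 and 34.1 RPKM, a narrow range next to the ligands. Of the BMP-regulated SMADs, SMAD1 had 34.1 RPKM in the R/r library and 31.7 RPKM in the r/r library, with a ratio of -0.11 (-0.23 to 0.01). SMAD5 had 26.8 and 27.2 RPKM, a ratio of 0.02 (-0.13 to 0.17). SMAD9, the least abundant of these, had 18.3 and 21.5 RPKM, a ratio of 0.23 (0.13 to 0.33). As deposited, SMAD9 alone of these had an interval off no change.

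A pair of features carried the symbol SMAD2 in the table, and the Ensembl name table gives one of them (ENSSSCG00000004952) as SMAD3. That feature, taken here as SMAD3, had 24.5 and 28.5 RPKM and a ratio of 0.22 (0.14 to 0.30). The other (ENSSSCG00000004505), taken as SMAD2, had 21.4 and 20.0 RPKM and a ratio of -0.10 (-0.29 to 0.09), although its description in the table speaks of a homolog numbered 3, so the identities of the pair are uncertain. SMAD4, the common partner, had 33.2 and 32.2 RPKM, a ratio of -0.04 (-0.18 to 0.10). Both inhibitory SMADs had ratios above 0. SMAD6, which mainly curbs BMP signals, had 18.1 and 22.6 RPKM, a ratio of 0.32 (0.15 to 0.48). SMAD7, which curbs TGF beta receptors as well, had 16.9 and 18.7 RPKM, a ratio of 0.15 (0.004 to 0.29), and with the libraries scaled to TPM its interval included 0 (-0.03 to 0.25). Under the same scaling the interval of SMAD1 lay below 0 (-0.26 to -0.02).

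FGF ligands were fewer and lower than BMP ligands. Of 16 secreted FGFs, 4 were past the minimum. FGF2, a broadly expressed ligand held on heparan sulphate, had 23.2 RPKM in the R/r library and 25.1 RPKM in the r/r library, with a ratio of 0.11 (-0.29 to 0.51) from 107 and 104 reads. FGF9, a ligand that signals from epithelium to mesenchyme in the developing ear, had 21.0 and 21.1 RPKM and a ratio of 0.01 (-0.15 to 0.18). These were the most abundant of the secreted FGFs, with overlapping intervals of level in both libraries, and neither differed beyond counting error. FGF1, which can bind all FGF receptors, had 7.82 and 5.87 RPKM, a ratio of -0.41 (-0.71 to -0.11). FGF10, the mesenchymal ligand of the IIIb form of FGFR2 and a gene of otic and semicircular canal growth, had 1.18 and 0.810 RPKM, a ratio of -0.54 (-1.08 to -0.01). The interval of FGF10 almost touched no change and included it with the libraries scaled by the median of all genes (-1.07 to 0.01) or by the upper quartile.

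The FGF homologous factors stay inside the cell, where they bind voltage-gated sodium channels, and are not ligands of the receptors in the usual sense. FGF11 was the most abundant of them with 44.1 RPKM in the R/r library and 48.0 RPKM in the r/r library, a ratio of 0.12 (-0.06 to 0.31). It was 11.1 times as high as FGF13 in the R/r library and 13.9 times in the r/r library. FGF13 had 3.97 and 3.46 RPKM and a ratio of -0.20 (-0.55 to 0.15), and FGF12 had 1.45 and 1.19 RPKM and a ratio of -0.28 (-0.79 to 0.22). FGF14, at 0.841 and 0.961 RPKM, was just under the minimum. The intervals of all 4 spanned no change.

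The FGF receptors were expressed far above their ligands and had intervals above no change in the values as deposited. With the libraries scaled to TPM, the ratios stayed above 0 but the intervals of FGFR2 (-0.02 to 0.18) and FGFR3 (-0.01 to 0.32) included it. FGFR2 had 121 RPKM in the R/r library and 131 RPKM in the r/r library, a ratio of 0.11 (0.02 to 0.21), and a second, shorter feature of the same symbol had 116 and 130 RPKM, a ratio of 0.16 (-0.08 to 0.40). FGFR4 had 63.7 and 71.8 RPKM, a ratio of 0.17 (0.07 to 0.27); its row carries the description of a microRNA, so its name rests on the symbol. FGFR3, the receptor known for setting supporting cell fates in the organ of Corti and for restraining bone growth, had 54.5 and 62.2 RPKM, a ratio of 0.19 (0.02 to 0.36). The order of levels, FGFR2 before FGFR4 before FGFR3, was the same in both libraries, and each receptor's interval lay apart from the next. The feature named FGFR1IIIC, which the Ensembl name table gives as FGFR1 and which the symbol rule does not take, had 143 and 144 RPKM and a ratio of 0.01 (-0.06 to 0.07). It was the FGF receptor with the highest level and its interval spanned no change.

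Other genes of the pathways were read in lists by role. Of 13 further BMP and GDF antagonists, 9 were measured, 8 were past the minimum and 0 were at least 2-fold apart, with a median log2 ratio of 0.01. Their most abundant members were NBL1 (168 and 170 RPKM, ratio 0.02) and BMPER (127 and 150 RPKM, ratio 0.23, interval 0.14 to 0.32), a modulator of BMP4 that was 15.5 times as high as FST in the R/r library and 34.1 times in the r/r library. SOST, a bone marker too and named after its values were seen, had 7.91 and 4.28 RPKM and a ratio of -0.89 (-1.48 to -0.32), the only interval of this list below 0. The list of activins, inhibins and latent TGF beta genes had 7 members past the minimum and a median of -0.40. Of these, 6 of 7 lay below 0, beside 8711 of all 16331 genes. INHA, the inhibin alpha chain, which opposes activin, was the member at least 2-fold lower, with 9.77 RPKM in the R/r library and 3.86 RPKM in the r/r library, a ratio of -1.34 (-1.74 to -0.95). LTBP1, which ties latent TGF beta to the matrix and is named here after its values were seen, had 24.3 and 16.0 RPKM and a ratio of -0.60 (-0.71 to -0.50), and THBS1, an activator of latent TGF beta, had 112 and 133 RPKM and a ratio of 0.25 (0.20 to 0.30). LTBP3 had 28.4 and 26.2 RPKM and a ratio of -0.12 (-0.19 to -0.04).

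Of the activin receptors and coreceptors, 7 were past the minimum and 0 were 2-fold apart, with a median of -0.05. ENG, the endothelial coreceptor endoglin, had 86.9 and 82.5 RPKM, and ACVR1, a type I receptor of BMPs, had 34.0 and 36.8 RPKM. The SMAD regulators, also 7 past the minimum with 0 at 2-fold, had a median of 0.17, and STRAP and PPM1A were their most abundant members with ratios of 0.17 and 0.04. Of 11 transcriptional targets of BMPs and TGF betas past the minimum, 1 was at least 2-fold lower and the median was -0.02. This was COL1A1, which is in the list of bone markers too, with 89.1 and 38.5 RPKM and a ratio of -1.21 (-1.51 to -0.92). ID2, a dominant negative partner of helix-loop-helix factors induced by BMPs, had 105 RPKM in the R/r library and 173 RPKM in the r/r library. Its ratio of 0.72 (0.65 to 0.80) stood apart from those of ID1 (0.19), ID3 (-0.05) and ID4 (-0.08). TGFBI, a matrix protein named for its induction by TGF beta, had 131 and 130 RPKM.

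On the FGF side, 7 coreceptors and binding proteins were past the minimum, 0 were 2-fold apart and the median was 0.07, with GPC1 and SDC4 most abundant at ratios of 0.07 and 0.07. The 14 adaptors and feedback targets were all past the minimum. Whether their levels follow the strength of FGF signalling in this tissue was not tested. None of the 14 was 2-fold apart, the median was -0.0030 and the ratios ran from -0.21 to 0.31. The interval lay above no change in 2 of them and below it in 0, beside 11.2% and 14.5% of all genes. These were ETV5, with a ratio of 0.25 (0.11 to 0.39), and SPRED3, with 0.31 (0.03 to 0.60). IL17RD, a feedback inhibitor also called SEF, had 72.7 and 72.1 RPKM, and the FGF-responsive factor ETV4 had 38.4 and 38.6 RPKM. DUSP6, a phosphatase that closes the feedback on ERK, had 12.3 and 11.9 RPKM.

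**Figure D4:**
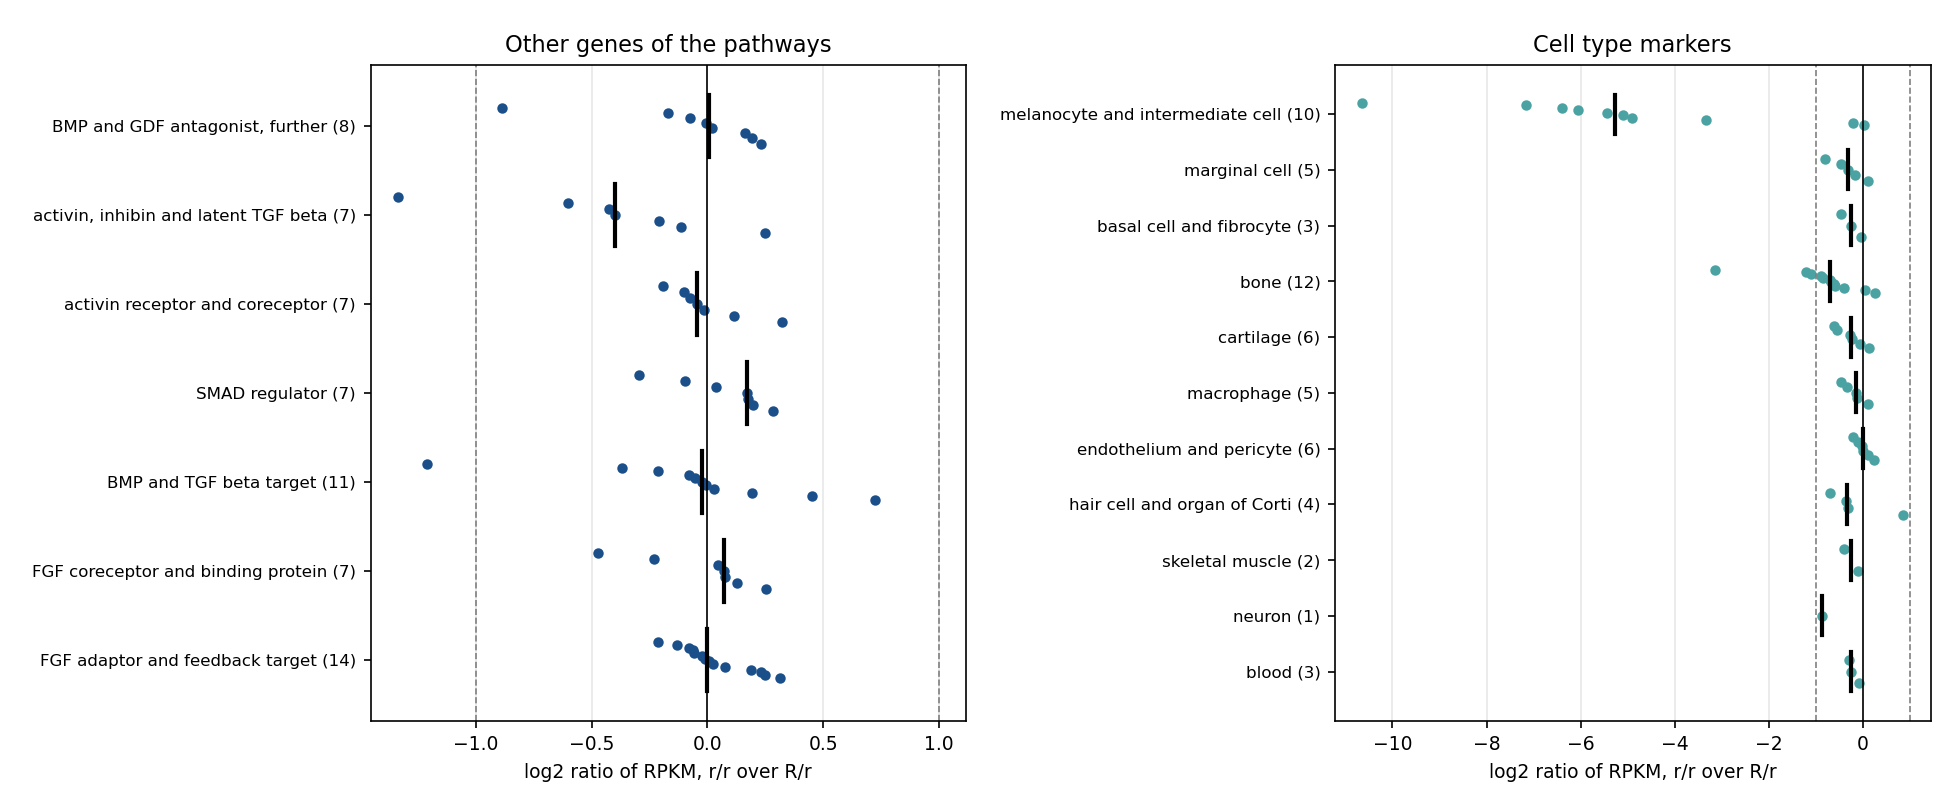
Log2 ratio of RPKM, r/r over R/r, of other pathway genes (left) and of cell type markers (right), each point a gene past the minimum of 1 RPKM, black bars the list medians and the number of genes in parentheses. On the left, INHA and COL1A1 lie beyond the dashed 2-fold line; on the right, the melanocyte markers reach -10.64 and the bone markers have a median of -0.70.

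Markers of other cells differed between the same libraries, and their part in the ratios above was not tested. Of 10 melanocyte and intermediate cell markers past the minimum, 8 were lower by 2-fold or more, and the summed level over the measured list went from 354 to 53.6 RPKM. TYRP1 had 1 read in each library, MLANA was at 0 in the r/r library, and KIT and SOX10 had ratios of 0.02 and -0.21. KIT, with 43.6 RPKM in the R/r library and 44.2 RPKM in the r/r library, held most of the summed level in the latter. KCNJ10, also in this list, was not found by symbol. For comparison, 8711 of all 16331 genes were lower in the r/r library, and 2.20% of all genes at least 2-fold. Of 12 bone markers 10 were lower and 3 of these at least 2-fold (MEPE, DMP1 and COL1A1), with sums of 1074 and 707 RPKM. Of 6 cartilage markers 5 were lower, with a median of -0.25. Marginal cell markers (5 genes) had a median of -0.31, basal cell and fibrocyte markers (3 genes) -0.25 and macrophage markers (5 genes) -0.14. Blood markers (3 genes) had a median of -0.25, and the list of hair cell and organ of Corti genes (4 genes) -0.34. In the latter list 2 intervals lay below 0, and that of TECTA lay above it (ratio 0.86, 0.59 to 1.13). ATOH1 (1 and 0 reads) and POU4F3 (6 and 7 reads) of that list did not pass the minimum. The summed level of that list was 21.7 and 22.6 RPKM. The 6 endothelium and pericyte genes had a median of -0.01. Skeletal muscle (2 genes, -0.25) and neurons (1 gene, -0.88) had few list genes past the minimum. Of the muscle list, MYH8, TNNT3 and MYLPF were not found by symbol, and MYH3 had 12.0 and 11.2 RPKM.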

How the data were processed

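Lateral walls with the SV were sequenced as 100-bp paired reads by the authors, aligned to Sscrofa10.2 with TopHat2 2.0.7, and deposited as RPKM per gene; the counting program and annotation are not given in the sources used here. RPKM values were used as deposited. Reads were worked out from the steps of these values: 523 low genes with equal reads gave the library ratio, the totals were chosen to make exon model lengths whole, and reads were found for 100% of 20862 features above 0. This step was chosen after seeing the data and was tested on simulated data. There the exact reads were recovered for 84.9% of genes above 0 in both libraries, and reads right up to a common factor for 100%. Genes were compared at a minimum of 1 RPKM in at least one library. Of features with a common symbol, that of the highest mean level was kept, except that a feature with the symbol SMAD2 was taken as SMAD3 from the Ensembl name table. Levels carry exact Poisson intervals, and limits for a count of 0 are set at 3 reads. The threshold of 2-fold is that of the study, whose list of differing genes gives a p-value for each gene as well. Here 2-fold was used alone, so the calls are not those of the study. With 1 library per genotype no test was run.

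Members and lists were chosen with earlier results of these data known. Values are given for members whose interval left no change out, for the 3 most abundant of each role, and for list genes at least 2-fold apart or among the 2 most abundant. KCNE1, SLC26A4, KIT, SOX10, ID1, ID3, ID4, LTBP1, SOST, DUSP6, ETV5, SPRED3 and FGFR1IIIC were named after their values were seen. BMP1 and the intracellular FGF11 to FGF14 were kept apart from the ligands. In the list of targets and of antagonists, COL1A1 and SOST are also bone markers. Alternatives were pseudocounts, minimums, scalings, thresholds and other readings of the symbols. The table holds 2 further columns without headings, filled in 22 rows, which were not used. Promoter sequences were not analysed here. The result of 1 of the cell type marker lists is not reported here. Computations ran in Python 3.11.15 with pandas 2.3.3, numpy 2.4.6 and scipy 1.17.1, and plots were drawn with matplotlib 3.10.9.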

Additional observations from a re-analysis of the deposited data

How the results depend on the processing

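No paired analysis was possible because each genotype had a single library, and no replicate could be left out. The 0 members at least 2-fold apart became 2 with no minimum RPKM, both higher in the r/r library. These were BMP2, by the feature kept for it with 13 reads over both libraries, and FGF23 with 3 reads. The other BMP2 feature had a ratio of -1.17, and both features together had 0.44 (-0.97 to 1.89), which is under 2-fold. With a 1.5-fold threshold the count became 1, lower in the r/r library (FST). It stayed at 0 with pseudocounts of 0.1 and 1 RPKM, minimums of 5 and 10 RPKM, 3 scalings, features summed by symbol, a 4-fold threshold, intervals wholly beyond 2-fold, and other readings of the symbols. The median of the members ran from -0.02 to 0.04. Of 107 medians by role, 106 stayed within the medians of the interval bounds, and that of the secreted antagonists became -0.90 with a minimum of 5 RPKM, where FST alone was left, by construction. All 195 values of single members under pseudocounts and scalings stayed within their intervals. For the scalings this was fixed in advance, since their shifts were smaller than the reach of the intervals. The scalings by the median, the upper quartile and TPM took away log2 shifts of -0.02, -0.02 and 0.04 from all genes. Intervals under each scaling and the readings that added BMP-10 and FGFR1IIIC or left out shared symbols were alternatives chosen after seeing the data. Depth limits BMP2, GREM1, GDF1 and the FGFs under 1 RPKM.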

Other observations

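Some relatives of these genes are in neither the symbol rule nor the lists and were named after their values were seen. WFIKKN1, a binding protein of GDF8 and GDF11, had 0.425 RPKM in the R/r library and 1.10 RPKM in the r/r library, from 6 and 14 reads, and the interval of its log2 ratio of 1.37 ran from -0.10 to 3.04. Its paralog WFIKKN2, with 859 and 818 reads, had 14.8 and 15.6 RPKM and a ratio of 0.08 (-0.06 to 0.22). CRIM1, a transmembrane protein with chordin-like repeats that binds BMPs, had 24.7 and 24.2 RPKM and a ratio of -0.03 (-0.11 to 0.05). BMP2K, a kinase induced by BMP2, had 4.01 and 3.41 RPKM and a ratio of -0.23 (-0.67 to 0.20). BMP-10 had 1 read, in the R/r library.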
